A study of Mus musculus with 16 samples.

Results

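The B cell genes Cd83, Pax5, Bcl6 and Aff3 were examined as partners of an induced DNA break in Myc. Counted for them were the entries of all 16 junction lists whose gene name was exactly one of these 4 names. Together they held 209 of the 33479 junctions outside chromosome 15, with 67 in Cd83, 54 in Pax5, 46 in Bcl6 and 42 in Aff3. Among 6871 gene names they ranked 8, 11, 14 and 16 by number of junctions. High-throughput genome-wide translocation sequencing (HTGTS) records the genomic end, the prey, that was joined to a fixed break, the bait. In all 16 libraries the bait lay in the first intron of Myc on chromosome 15, where 1 allele carried 25 I-SceI sites, and I-SceI was delivered with GFP by retrovirus to cultured splenic IgM+ B cells of 129sv mice aged 6 to 8 weeks.

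The 5 groups differed in genotype, inhibitor and stimulus. Wild-type cells (WT, n = 4), ATM-/- cells (n = 3) and WT cells with the ATM kinase inhibitor KU55933 at 10 µM (n = 3) received anti-CD40 (1 µg/mL) and IL4 (20 ng/mL). They were infected at 24 h and harvested on day 4; the inhibitor was present from infection onward. WT (n = 3) and ATM-/- (n = 3) cells were grown with RP105 at 2 µg/mL, infected at 48 h and harvested on day 5. The labels do not say whether replicates were separate mice, so p-values measure only the spread between libraries, which may be technical.

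CD83 is a surface protein induced on activated B cells and dendritic cells. PAX5 is the transcription factor that maintains B cell identity, BCL6 is the repressor that drives the germinal centre reaction, and AFF3 is a nuclear protein of the AF4 family, expressed in lymphoid cells. Class switching proceeds through DNA breaks in the switch regions of Igh, and the same activity also damages DNA near the transcription starts of some other genes, its off-targets. BCL6 and PAX5 are textbook examples of such off-targets, with mutations in germinal centre cells and lymphomas. ATM is the kinase that signals double-strand breaks and helps to hold broken ends together for repair. Anti-CD40 with IL4 induces switching, whereas stimulation through RP105 induces proliferation with little switching.

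Sequence at the densest stretches is shown to place the joins. Each is 120 bases of the plus strand of mm9, read from the aligned prey, in the stretch with the most junctions for its gene that lay at least 500 bases from the gene's first junction or, upstream of Pax5, from its start. Capitals mark AGCT, a palindrome that is frequent in switch regions, searched on both strands, which read alike. Exon or intron was not assigned, because no annotation of this build was used here. The Cd83 stretch at chr13:43883897-43884016 took 6 junctions from 4 libraries. The Bcl6 stretch at chr16:23987299-23987418 took 6 from 3 libraries and the Aff3 stretch at chr1:38720471-38720590 took 6 from 5 libraries. The stretch at chr4:44726650-44726769, upstream of Pax5, took 13 from 6 libraries and carried no gene name in the files.
Cd83: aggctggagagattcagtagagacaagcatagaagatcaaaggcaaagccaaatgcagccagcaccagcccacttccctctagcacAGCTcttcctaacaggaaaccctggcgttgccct
Bcl6: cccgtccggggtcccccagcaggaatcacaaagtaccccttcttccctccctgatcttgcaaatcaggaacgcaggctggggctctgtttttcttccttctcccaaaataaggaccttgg
Aff3: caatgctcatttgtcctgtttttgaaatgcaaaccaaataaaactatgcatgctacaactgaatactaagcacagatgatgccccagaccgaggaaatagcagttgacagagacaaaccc
Upstream of Pax5: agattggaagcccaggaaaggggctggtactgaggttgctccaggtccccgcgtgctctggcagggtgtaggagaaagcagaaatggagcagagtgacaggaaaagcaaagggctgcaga

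The motif occurred once in the Cd83 stretch and in none of the other 3 shown. The densest stretch of named Pax5 junctions, chr4:44716403-44716522, is not shown. It took 4 junctions from 3 libraries and also held the motif once. Taking the first 120 prey bases from the join, wherever a gapless alignment was that long, 33 of 75 stretches in the 4 genes held AGCT (44%). The share was 45.3% of 9899 stretches elsewhere outside chromosome 15 and 91.7% of 520 in the Igh switch regions. By gene it was 9 of 21 for Cd83, 10 of 15 for Pax5, 8 of 20 for Bcl6 and 6 of 19 for Aff3. Stretches from neighbouring joins overlap, so these shares are descriptions. Of the 32851 RefSeq promoters (GRCm38.p6), 77.6% held AGCT, but in windows of 300 bases. A longer window holds a short motif more often, so this share cannot be set against those of 120-base stretches.

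Several features of the libraries bear on the values that follow. Libraries held 4484 to 18264 junctions, of which 586 to 5604 lay outside chromosome 15, so 3 junctions amounted to 0.0535% to 0.512% of a library. All shares are percentages of the junctions outside chromosome 15, and intervals and limits cover counting error only. The KU55933 and RP105 libraries were sequenced on MiSeq and the other anti-CD40/IL4 libraries on 454, so inhibitor or stimulus and sequencer cannot be told apart, except between the 2 RP105 groups and between ATM-/- and WT. Prey ended at a HaeIII site, the enzyme used to cut the DNA, in 79.3% to 91.9% of junctions, except in KU55933 replicates 2 (35.0%) and 3 (32.2%). The share of all junctions within 1 Mb of the break was 78.7% ± 2.43 (SD, n = 4) in WT and 54.6% ± 4.25 (n = 3) in ATM-/- under anti-CD40/IL4, but 64.2% ± 1.43 in the 3 libraries labelled WT and 87.3% ± 1.38 in the 3 labelled ATM-/- under RP105. The RP105 libraries thus ran opposite to their genotype labels as read under anti-CD40/IL4, and are called by their labels below. Joins of DNA do not measure expression: B cell marker genes held 40 junctions, T cell markers 2 and myeloid markers 2, and cell identity was not tested by these data.

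Joins to the 4 genes were sparse and came mostly from the KU55933 libraries. They held 142 of the 209 junctions, against 22 in WT, 33 in ATM-/-, 6 in the libraries labelled WT and 6 in those labelled ATM-/- under RP105. As a share, the 4 genes together took 1.02% ± 0.335 (SD, n = 3) with KU55933, 0.485% ± 0.326 (n = 4) in WT, 0.473% ± 0.101 (n = 3) in ATM-/-, 0.233% ± 0.0542 (n = 3) in libraries labelled ATM-/- under RP105 and 0.0945% ± 0.0839 (n = 3) in those labelled WT. WT and ATM-/- differed by less than their spread. As a share of all junctions, chromosome 15 included, the means were 0.0843% in WT, 0.149% in ATM-/- and 0.333% with KU55933, so the order of WT and ATM-/- depends on the denominator. No comparison called any of the 4 genes at an adjusted p under 0.05 by edgeR's quasi-likelihood test over 162 genes.

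**Figure D1:**
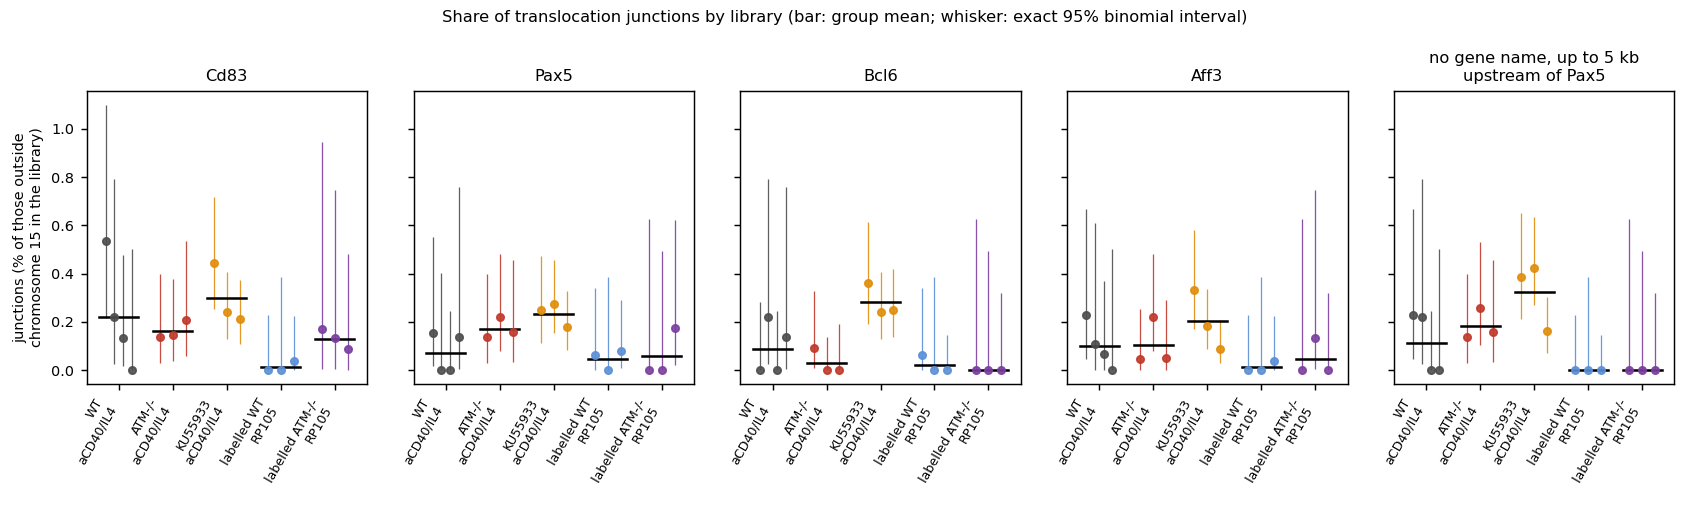
Junctions in each gene as a percentage of the junctions outside chromosome 15, 1 point per library, for the 5 groups, with exact 95% binomial intervals as whiskers and group means as bars; the last panel shows unnamed junctions up to 5 kb upstream of Pax5. The KU55933 points for Bcl6 lie between 0.239% and 0.361%, above all 4 WT points, as for 27 of the 162 genes tested (16.7%). The unnamed upstream junctions are at 0 in all 6 RP105 libraries.

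Cd83 had the most named junctions of the 4 over all libraries, although Pax5 had more in ATM-/- (12 against 11) and in libraries labelled WT under RP105 (3 against 1). In WT libraries it had 7, 2, 2 and 0 junctions for replicates 1 to 4, or 0.536%, 0.220%, 0.133% and 0%. The ATM-/- libraries had 3, 4 and 4 (0.137%, 0.147% and 0.209%), and the KU55933 libraries 16, 13 and 12 (0.444%, 0.239% and 0.214%). Under RP105 the libraries labelled WT had 0, 0 and 1 junction and those labelled ATM-/- had 1 in each, at 0.171%, 0.134% and 0.0865%. WT replicate 1 was the highest library of all 16, and without it the WT mean of 0.222% ± 0.228 became 0.117%. By mean the order was KU55933 (0.299% ± 0.126), WT, ATM-/- (0.164% ± 0.0391), labelled ATM-/- under RP105 (0.131% ± 0.0422) and labelled WT under RP105 (0.0134% ± 0.0231). Of the neighbours in this order, only the 2 RP105 groups did not overlap, with at most 1 junction per library. The same held for 8 of the 162 genes tested in that direction (4.94%). Apart from neighbours, ATM-/- lay below all 3 KU55933 libraries, as for 26 of the 162 (16%). As a share of all junctions WT (0.0398%) came below ATM-/- (0.0524%).

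Pax5 had 2, 0, 0 and 1 junctions in WT (0.153%, 0%, 0% and 0.137%). The ATM-/- libraries had 3, 6 and 3 (0.137%, 0.221% and 0.157%) and the KU55933 libraries 9, 15 and 10 (0.250%, 0.276% and 0.178%). All KU55933 libraries were thus above all WT libraries, as for 27 of the 162 genes tested (16.7%), and ATM-/- overlapped with both. Under RP105 the counts were 1, 0 and 2 in libraries labelled WT and 0, 0 and 2 in those labelled ATM-/-. Group means were 0.0725% ± 0.0839 in WT, 0.172% ± 0.0440 in ATM-/-, 0.235% ± 0.0505 with KU55933, 0.0472% ± 0.0419 in libraries labelled WT and 0.0577% ± 0.0999 in those labelled ATM-/-; the last 2 and WT did not differ beyond their spread.

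Of 46 Bcl6 joins, 40 came from the KU55933 libraries, which also held the most junctions outside chromosome 15. Replicates 1 to 3 had 13, 13 and 14 junctions, at 0.361%, 0.239% and 0.250%. WT libraries had 0, 2, 0 and 1 (0%, 0.220%, 0% and 0.137%), and ATM-/- libraries had 2, 0 and 0 (0.0912%, 0% and 0%). The KU55933 mean of 0.283% ± 0.0671 was above every library of WT (mean 0.0891% ± 0.108) and of ATM-/- (mean 0.0304% ± 0.0527), whereas WT and ATM-/- overlapped. Every single KU55933 library was also above both groups. Of the 162 genes tested, 27 showed this against WT (16.7%) and 26 against ATM-/- (16%). Under RP105 there was 1 junction, in replicate 1 of the libraries labelled WT; those labelled ATM-/- had 0 of 2486, which allows a share of up to 0.121% (3 junctions; the exact 95% interval reaches 0.148%).

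Aff3 had 3, 1, 1 and 0 junctions in WT (0.230%, 0.110%, 0.0663% and 0%), and 1, 6 and 1 in ATM-/- (0.0456%, 0.221% and 0.0523%). The KU55933 libraries had 12, 10 and 5, at 0.333%, 0.184% and 0.0892%. The ranges of these 3 groups overlapped, with means of 0.101% ± 0.0966, 0.106% ± 0.0994 and 0.202% ± 0.123. Under RP105, replicate 3 labelled WT and replicate 2 labelled ATM-/- had 1 junction each. Both were the same plus-strand alignment, from 38552060 to 38552231 on chromosome 1, in libraries of different sequencing runs; no other Aff3 alignment occurred in more than 1 library. In Cd83 1 alignment, from 43880983 to 43881025 on chromosome 13, was shared by KU55933 replicates 1 and 2, which came from 1 run, and in Pax5 and Bcl6 none was shared.

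Across the 16 libraries, shares of Cd83 and Aff3 moved together most closely among the members (Pearson r = 0.80). Over the 29 genes with at least 30 junctions, the genes most like Cd83 were Aff3 and Arid5a (r = 0.76), and the gene most like Pax5 was Il4ra (r = 0.82). Most like Bcl6 were Il21r (r = 0.88), Pim1 (r = 0.84) and the joint entry of Nup62-il4i1 and Il4i1 (r = 0.74). Aff3 was followed by Il21r (r = 0.76) and Arid5a (r = 0.73). Shares within a library have a common denominator and the libraries form 5 groups of unlike depth, so these values only describe the likeness. Other pairs of members had r of 0.38 to 0.55.

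Positions along the gene differed among the 4. The densest 5 kb took most of the junctions in Cd83 and Bcl6, a smaller share in Aff3 and the smallest in Pax5. The width was fixed, whereas the junctions spanned 16.7 kb in Cd83, 21.0 kb in Bcl6, 159 kb in Pax5 and 482 kb in Aff3. This order therefore takes no account of gene length. Each window below is the densest found among these same junctions, so its interval leaves out the choice of the window. For Cd83 and Aff3 no start site was located, so distances are from the first junction. In Cd83, on the plus strand of chromosome 13, 62 of 67 junctions lay in the first 5 kb of the gene's junctions, from 43880686 to 43885685 (92.5%, exact 95% interval 83.4 to 97.5). The median was 1.25 kb from the first junction. Outside that 5 kb, 4 junctions lay over 16 kb from the first junction, 1 in WT, 1 in ATM-/- and 2 in libraries labelled ATM-/- under RP105. The KU55933 libraries had 40 of 41 in the 5 kb.

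Bcl6, on the minus strand of chromosome 16, was the tightest of the 4 over 2 kb. The window from 23986449 to 23988448 took 39 of 46 junctions (84.8%, interval 71.1 to 93.7), and 40 lay within 3 kb after the start site. That start, at 23988938 in mm9, was placed by matching prey sequence to 1 RefSeq promoter of Bcl6 (150 bases in 1 alignment). Another RefSeq promoter of the gene matched no prey sequence, so its start was not placed. All 3 WT junctions, 36 of 40 with KU55933 and 1 of 2 in ATM-/- were in those 3 kb; the RP105 junction lay 17.0 kb from the start.

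Aff3, on the minus strand of chromosome 1, combined a cluster next to its first junction with scattered joins. The densest 5 kb, from 38716226 to 38721225, took 26 of 42 junctions (61.9%, interval 45.6 to 76.4), and all 42 spanned 482 kb. This window held 4 of 5 junctions in WT, 19 of 27 with KU55933, 3 of 8 in ATM-/- and neither of those under RP105, with counts too small to order the groups.

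Pax5, on the minus strand of chromosome 4, had the smallest share of named junctions in its densest 5 kb and a separate unnamed cluster. Its densest 5 kb, from 44713448 to 44718447, took 25 of 54 junctions (46.3%, interval 32.6 to 60.4), and the junctions spanned 159 kb. Matching of 202 promoter bases in 3 prey alignments put the start at 44723566. The densest window therefore lay downstream of the start, with a median of 8.41 kb for all Pax5 junctions, and 9 junctions lay within 3 kb after it, all with KU55933.

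Upstream of this start, 64 junctions without a gene name lay within 5 kb, more than the 54 named Pax5. They ran from 44723592 to 44727844 with a median 2.71 kb from the start. WT libraries had 3, 2, 0 and 0 of them, ATM-/- had 3, 7 and 3, and KU55933 had 14, 23 and 9. Their shares were 0.112% ± 0.130 (n = 4), 0.184% ± 0.0649 (n = 3) and 0.324% ± 0.143 (n = 3). All 6 RP105 libraries had 0; the 5076 junctions labelled WT allow up to 0.0591% and the 2486 labelled ATM-/- up to 0.121%. By contrast, 2 unnamed junctions lay in the 5 kb upstream of the first Cd83 junction, 4 upstream of Bcl6 and 0 upstream of Aff3. A count by gene name leaves these joins out, and the comparisons of KU55933 with none and of RP105 with anti-CD40/IL4 are given below for Pax5 with and without them.

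**Figure D2:**
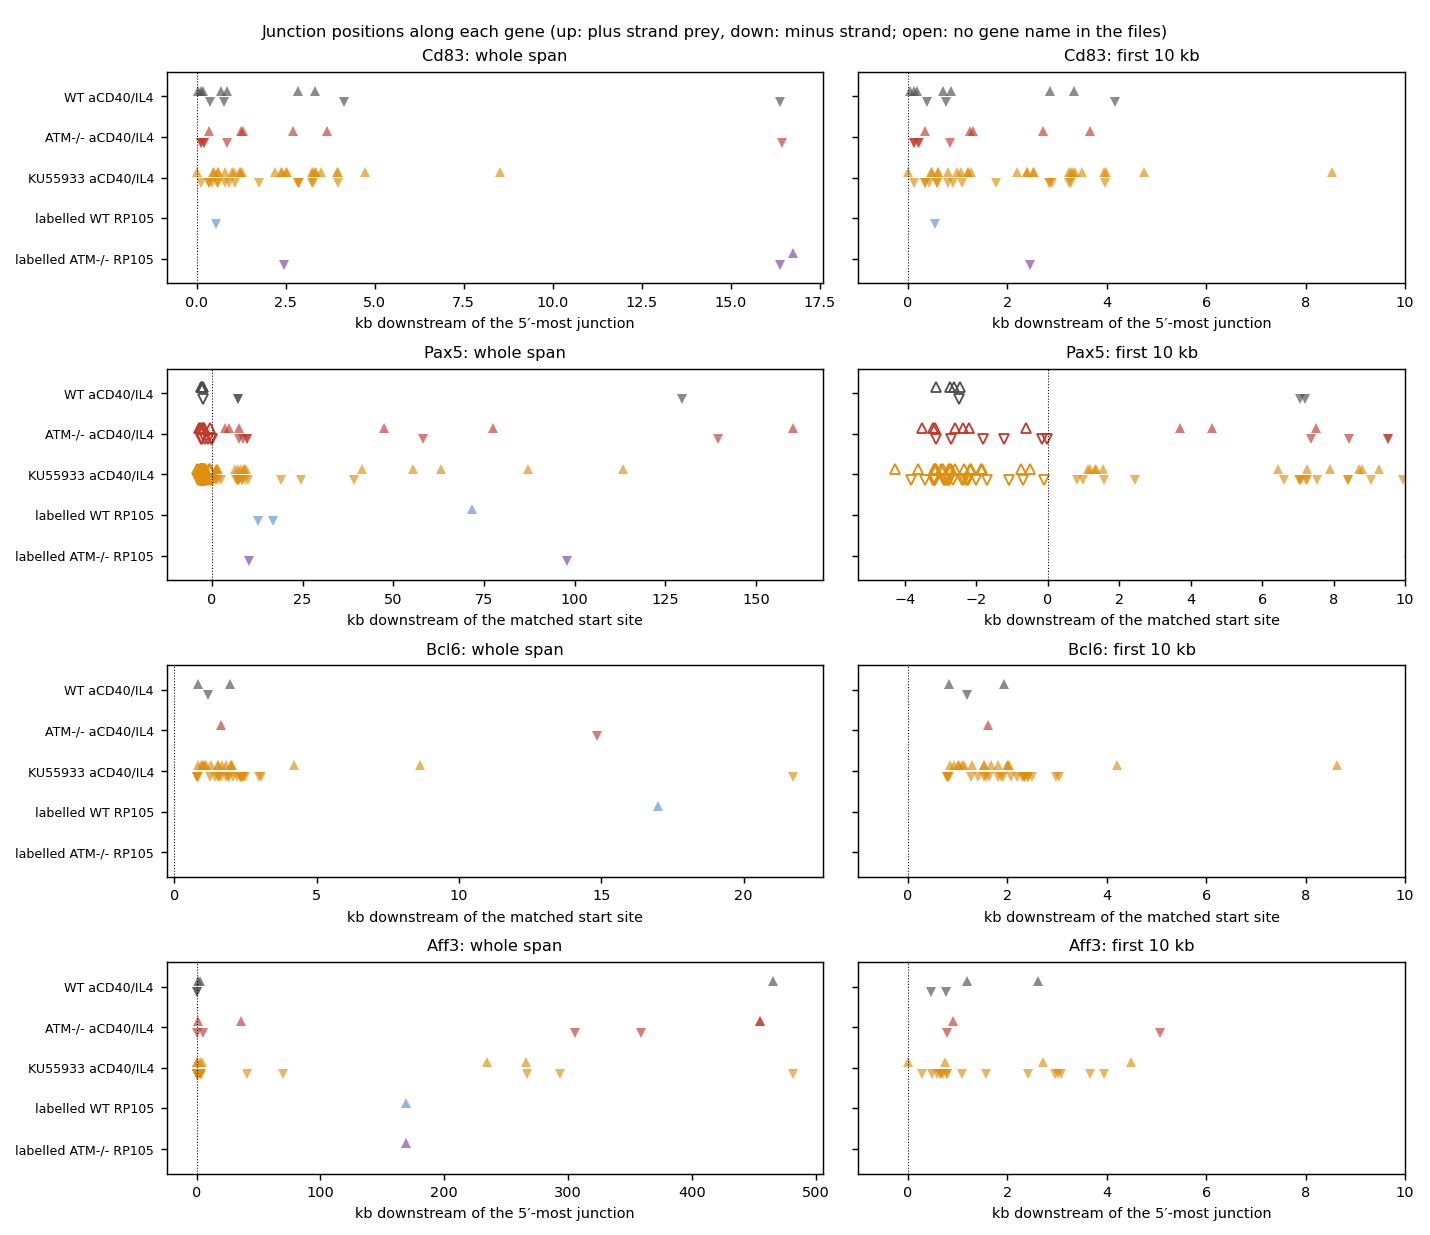
Junction positions by group, in kb downstream of the matched start site (Pax5 and Bcl6) or of the 5′-most junction (Cd83 and Aff3), over the whole span and over the first 10 kb; triangles pointing up are plus-strand prey, those pointing down minus-strand prey, and open triangles are unnamed junctions. Cd83 and Bcl6 junctions crowd into the first 5 kb, Aff3 has 26 of 42 there, and the open triangles show the 64 unnamed junctions upstream of Pax5.

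Prey joined in both orientations at each gene. Plus-strand prey made up 38 of 67 junctions in Cd83, 23 of 54 in Pax5, 20 of 46 in Bcl6, 15 of 42 in Aff3 and 31 of 64 upstream of Pax5. Over all junctions outside chromosome 15 the share was 49.8%. Aff3 was the most uneven at 35.7% (exact 95% interval 21.6 to 52.0), an interval that includes the overall share. In its KU55933 libraries 6 of 27 were plus (22.2%, interval 8.62 to 42.3), beside 49.4% of all their junctions, with 4 of 8 in ATM-/- and 3 of 5 in WT. This group was singled out from all genes and groups after their counts were seen. Its interval pools junctions over 3 libraries, and a strand bias was not tested.

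Addition of KU55933 to WT cells asked what loss of ATM kinase activity does to joining at these genes. Fitted shares were higher for Bcl6 by 1.92 ± 0.834 (log2, SE; adjusted p = 0.247, unadjusted p = 0.0214) and for Pax5 by 1.70 ± 0.826 (adjusted p = 0.291, unadjusted p = 0.0396), by edgeR's quasi-likelihood test. Aff3 differed by 0.77 ± 0.781 and Cd83 by 0.26 ± 0.607, with adjusted p of 0.670 and 0.876. No member passed, and 1 of the 162 genes did (0.617%). Every KU55933 library was above every WT library for Pax5 and Bcl6, a pattern that 27 of the 162 genes showed (16.7%). By summed counts, 40 Bcl6 junctions against 3 gave a ratio of 4.06 (exact 95% interval 1.29 to 20.5) and 34 Pax5 junctions against 3 gave 3.45 (1.08 to 17.6).

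The median gene was itself 0.48 higher on the log2 scale; relative to it Bcl6 stood at 1.44, Pax5 at 1.22, Aff3 at 0.29 and Cd83 at -0.22. That median rests partly on 29 genes with no junction in a group compared, whose fitted values depend on the prior count. With each at its bound, taking 3 junctions over the group in place of 0, the median was 0.02. With TMM factors that median moved to 1.15, the fold changes to 2.68 for Bcl6 and 2.46 for Pax5, and both passed (adjusted p = 0.0172 and 0.0387), where the highest adjusted p over all alternatives was 0.931 for each. Without KU55933 replicates 2 and 3, whose prey ends differed, 1 KU55933 library was left, and the fit took its spread to be that of the other groups. Bcl6 then gave 2.28 (edgeR, adjusted p = 0.101) and Pax5 1.78 (adjusted p = 0.219), and Bcl6 in ATM-/- against that 1 library gave -3.31 (adjusted p = 0.00908). With the unnamed upstream junctions added, Pax5 gave 1.58 (adjusted p = 0.192). Genes were testable with at least 10 junctions over all libraries, of which the KU55933 libraries held the most. Genes high with KU55933 thus entered more readily, and Bcl6 entered only through its 40 junctions in that group. Of the 9 testable genes of a list of 34 other off-target genes, 8 had positive fitted fold changes, a direction that this filter favours. Of the 9, 2 had no junction in a group compared, and none passed. Their median was 1.26 as fitted and 0.86 with those 2 at their bound, beside 1.23 for the 4 members, all of which had junctions in both groups. Among them Il4ra, the IL4 receptor subunit and the off-target with most junctions (252), differed by 1.45 ± 0.524 (adjusted p = 0.198), Il21r (86 junctions) by 1.59 ± 0.630 (adjusted p = 0.211) and the kinase gene Pim1 (138 junctions) by 0.86 ± 0.540 (adjusted p = 0.431). The Igh switch regions took 12.0% ± 1.25 (n = 4) of junctions in WT and 7.69% ± 0.948 (n = 3) with KU55933.

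Genetic loss of ATM was compared with WT under the same stimulus. None of the 4 genes passed, nor did any of the 162 (0%; 8 had an unadjusted p under 0.05, and DESeq2 called 0). Pax5 differed by 1.29 ± 0.917 (adjusted p = 0.735), with 12 junctions against 3, and Bcl6 by -1.09 ± 1.25 (adjusted p = 0.826), with 2 against 3. Cd83, at 11 junctions in both groups, differed by -0.56 ± 0.708, and Aff3 by 0.04 ± 0.888. The sign for Cd83 turned with TMM factors (0.12) and DESeq2 (0.22), and that for Aff3 with several alternatives. The comparison shares its WT libraries with the one above, and it set 33 member junctions against 22. Switch regions took 4.35% ± 0.776 (n = 3) in ATM-/-.

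ATM-/- and inhibited cells were set side by side to ask whether absence and inhibition of the kinase give the same partners. Bcl6 had the lowest p of all 162 genes here, -3.01 ± 0.873 (log2, SE; edgeR, adjusted p = 0.0945, unadjusted p = 0.000583), with 2 junctions in ATM-/- against 40 with KU55933, a ratio of 0.107 (exact 95% interval 0.0126 to 0.414). It did not pass, nor did any gene (0%; 17 had an unadjusted p under 0.05, and DESeq2 called 0). Bcl6 did pass without KU55933 replicate 3 (-3.05, edgeR, adjusted p = 0.0354). It also passed when only prey ending at HaeIII sites was counted (-3.06, adjusted p = 0.00857), where 3 genes were called. With DESeq2 its adjusted p was 0.999. Cd83 differed by -0.82 ± 0.608, Aff3 by -0.73 ± 0.706 and Pax5 by -0.41 ± 0.620, with adjusted p of 0.481, 0.622 and 0.776. Every ATM-/- library was below every KU55933 library for Bcl6 and Cd83, as for 26 of the 162 genes (16%). The median over the members was -0.77, beside -0.18 over all genes, or -0.10 with 12 genes at 0 in a group compared set at their bound. Over the 9 off-targets, none of which passed, it was -0.96, or -0.44 with 1 at its bound. The minimum of 10 junctions over all libraries favours genes high with KU55933 here too. Bcl6 met it only through its 40 junctions in that group, so its rank by p and its lack of overlap are not independent of the filter. The 2 groups differ in sequencer and depth as well as in how ATM was lost, and the part of these in the difference was not tested beyond the values above.

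Under RP105 the libraries labelled ATM-/- were compared with those labelled WT. The 4 genes had 6 junctions in each set. Cd83 had 3 against 1, a log2 difference of 2.33 ± 1.41 (adjusted p = 0.635) and a ratio of 6.13 with an exact 95% interval of 0.492 to 322. Its share was higher in every library labelled ATM-/- than in any labelled WT, as for 8 of the 162 genes (4.94%). Each library labelled ATM-/- had 1 Cd83 junction, of 586, 744 and 1156 outside chromosome 15. Replicate 3 labelled WT also had 1, of 2496, so against it the shares differed only through depth. Pax5 (2 against 3) differed by 0.40 ± 1.32 and Aff3 (1 against 1) by 0.88 ± 1.82. Bcl6, with 0 against 1, gave no fold. No gene passed (0% by edgeR; 4 had an unadjusted p under 0.05, and DESeq2 called 0). The 2 stimuli differed in their genotype difference by 2.89 ± 1.58 for Cd83 (RP105 less anti-CD40/IL4, log2; edgeR, adjusted p = 0.553), and the adjusted p of the other 3 was 0.869 or above.

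RP105 was compared with anti-CD40/IL4 within each genotype label, which sets weakly switching cells against switching ones. Switch regions took 0.787% ± 0.247 (n = 3) of junctions in libraries labelled WT and 0.986% ± 1.09 (n = 3) in those labelled ATM-/-. In libraries labelled WT, Cd83 differed by -3.29 ± 1.09 (edgeR, adjusted p = 0.0709, unadjusted p = 0.00263), with 1 junction against 11, a ratio of 0.0798 (exact 95% interval 0.00185 to 0.549). Aff3 differed by -2.21 ± 1.30 (adjusted p = 0.442), Bcl6 by -1.54 ± 1.43 (adjusted p = 0.577) and Pax5 by -0.20 ± 1.18. With the unnamed upstream junctions added, Pax5 differed by -1.55 ± 0.964 (adjusted p = 0.439). None of the 4 passed, while 3 of the 162 genes did (1.85%). The median over the members was -1.88, beside -0.15 over all genes as fitted and 0 with the 60 genes lacking a junction in a group at their bound or left out. Of the other off-targets, Il4ra differed by -2.56 ± 0.814 (adjusted p = 0.0695) and Pim1 by -2.60 ± 0.857 (adjusted p = 0.0709), close to Cd83 in p and likewise short of the threshold. Cd83 passed when prey ending at HaeIII sites alone was counted (edgeR, adjusted p = 0.0259), where 8 genes were called. It also passed when library size left out only 1 Mb around the break (adjusted p = 0.0188), where 7 were called. It did not pass with WT and ATM-/- labels swapped under RP105 (-0.96, adjusted p = 0.705), and its adjusted p ranged from 0.0127 to 1 over the alternatives.

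In libraries labelled ATM-/-, RP105 and anti-CD40/IL4 differed by -1.37 ± 1.36 for Aff3, -1.09 ± 1.07 for Pax5 and -0.40 ± 0.974 for Cd83, with adjusted p of 0.585, 0.585 and 0.879. With the unnamed upstream junctions, of which the RP105 libraries had 0, Pax5 differed by -2.12 ± 0.961 (edgeR, adjusted p = 0.345). Again none of the 4 passed, and 3 of the 162 genes did (1.85%). Bcl6, with 0 junctions against 2, gave no fold. With the labels exchanged, Cd83 differed by -2.73 (adjusted p = 0.176). Of the 12 RP105 junctions, 2 of 4 in Cd83, 1 of 5 in Pax5, 0 of 1 in Bcl6 and 0 of 2 in Aff3 lay in the densest 5 kb window of their gene. These windows were set on all junctions, nearly all of them from anti-CD40/IL4, so the shares of the stimuli are not compared.

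**Figure D3:**
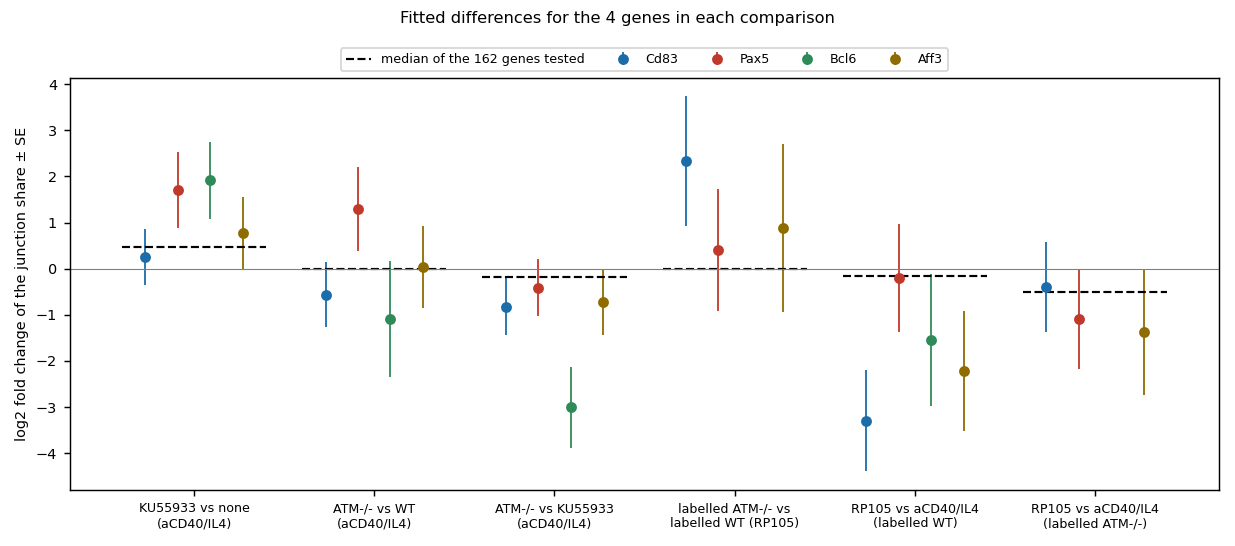
Fitted log2 fold changes of the junction share ± SE for the 4 genes in the 6 comparisons, with the fitted median of the 162 genes tested as a dashed line; Bcl6 has no point where a group had 0 junctions. The widest departures are Cd83 at -3.29 for RP105 against anti-CD40/IL4 in libraries labelled WT and Bcl6 at -3.01 for ATM-/- against KU55933, neither of which passed the threshold.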

How the data were processed

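HTGTS junctions were analysed in 16 libraries in 5 groups by genotype, inhibitor and stimulus. Per the file headers, each deposited list gives 1 junction per line with prey start and end, a strand, an alignment score (not used), the authors' gene name and, in 454 files, a PCR count (described only; 0 to 5 for the 4 genes). The genome build was mm9, per the submitters' processing notes; no source used here names the aligner or filters.

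Of 141227 lines, 1 broken line, 3 mitochondrial junctions and 56 repeats of an alignment within a library were dropped, leaving 141167 junctions, 33479 outside chromosome 15; 45.0% of these carried no gene name. Whole-number counts per gene name were compared with edgeR 4.0.16 (R 4.3.3; glmQLFit and glmQLFTest) on all 16 libraries for the 162 genes with at least 10 junctions, taking junctions outside chromosome 15 as the library size, and p-values adjusted by Benjamini-Hochberg over all genes tested (threshold 0.05). SE was derived from the log2 fold change and F (their quotient, with the root of F). The fit was tested on simulated data. Start sites were found by 28-base matches to RefSeq promoters (GRCm38.p6).

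Genes named are the 4 members, up to 3 genes most like each (r at least 0.7) and the 3 off-targets with most junctions. A gene that this rule would name is not reported here. Members and lists were chosen with earlier results of these data known. Alternatives were TMM, DESeq2 1.42.0, limma 3.58.1 voom with the run as a random block, count minimums, distinct positions, other library sizes, blocks and left-out libraries.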

Additional observations from a re-analysis of the deposited data

How the results depend on the processing

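Over the alternatives, 337 of 372 member fold changes kept their direction and their side of the threshold, 12 passed it only under an alternative and 23 changed sign; none of those that changed sign passed. Bcl6 for ATM-/- against KU55933 ranged from -3.37 to -2.39 and its adjusted p from 0.00857 to 0.999 (DESeq2). It also passed with at least 30 junctions per gene (edgeR, adjusted p = 0.0281), where fewer genes were tested. Bcl6 met that minimum only through the KU55933 libraries. Cd83 for RP105 against anti-CD40/IL4 in libraries labelled WT also passed with at least 30 junctions (0.0127), with only the groups compared (0.0283) and with a random run block (0.0444). The number of genes called moved by over 1.5 times in 40 of 111 fits; the cause was not tested.

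For KU55933 against none (1 gene called) the count was 10 with TMM, 0 with no filter, 3 with at least 30 junctions, 4 with HaeIII ends only, 20 with a random run block, 0 with DESeq2 and 0 to 5 without 1 library. For ATM-/- against WT (0) it was 1 with at least 30 junctions, 1 with only 1 Mb left out, 2 with HaeIII ends only, 2 with only the groups compared and 3 with a random run block. For ATM-/- against KU55933 (0) it was 2 with at least 30 junctions, 3 with HaeIII ends only, 2 without KU55933 replicates 2 and 3 and 0 to 2 without 1 library. For RP105 against anti-CD40/IL4 in libraries labelled WT (3) it was 11, 7, 8, 8 and 11 with at least 30 junctions, only 1 Mb left out, HaeIII ends only, only the groups compared and a random run block, and 3 to 6 without 1 library. In those labelled ATM-/- (3) it was 9 with TMM, 0 with no filter, 6, 5, 6 and 5 with at least 30 junctions, HaeIII ends only, only the groups compared and a random run block, and 0 to 5 without 1 library.

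Signs turned as follows. Cd83 for ATM-/- against WT became 0.12 with TMM, 0.22 with DESeq2, 0.89 with the run as a block and ranged from -0.85 to 0.35 without 1 library. Aff3 in that comparison became -0.16 with only 1 Mb left out, -0.092 with HaeIII ends only, -0.17 with a random run block, and ranged from -1.09 to 0.80 without 1 library; Bcl6 ranged from -1.64 to 0.025. Cd83 for KU55933 against none ranged from -0.11 to 1.17 without 1 library. Pax5 under RP105 became -0.35 with TMM and -0.53 with DESeq2, and for RP105 against anti-CD40/IL4 in libraries labelled WT 0.35 with DESeq2, 0.20 with labels exchanged and -0.74 to 0.75 without 1 library.

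Same-numbered libraries did not deviate together (correlations -0.11 to 0.17), so the numbers were not taken to pair samples. With the replicate block, Bcl6 for ATM-/- against KU55933 gave -3.06 (adjusted p = 0.0315) with 2 genes called, Aff3 for ATM-/- against WT -0.31 and Pax5 for RP105 against anti-CD40/IL4 in libraries labelled WT 0.15. The run as a fixed block could be fitted only for ATM-/- against WT and within RP105. No fold was taken where a group had 0 junctions. The HaeIII, random block, upstream, label exchange and KU55933 replicates 2 and 3 alternatives were chosen after seeing the data. Counting all junctions as denominator lowers every share above 0 by construction. It moved 7 of 20 group shares by more than 1 SD, a count that does not measure how stable the group differences are. Windows of 2 kb gave 55.2%, 31.5%, 84.8% and 40.5% and of 10 kb 94.0%, 66.7%, 93.5% and 64.3% for Cd83, Pax5, Bcl6 and Aff3. Depth limits all 4 genes.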
